A study of Mus musculus with 4 samples.

Results

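The genes of glutamate receptors and of the excitatory postsynaptic scaffold were read in mouse cerebrum after deletion of Mfsd2a, the transporter of lysophosphatidylcholine-bound docosahexaenoic acid, from the endothelium. The list holds 38 genes, chosen by name and with earlier results of these data known. It takes in subunits of the AMPA, NMDA, kainate and delta receptors, metabotropic receptors, and the Dlg, Shank and Homer scaffold proteins. The kinases Camk2a, Camk2b and Itpka and the neuroligins complete the 38. Of these, 36 were matched to a probe set carrying 1 gene symbol and 35 had a mean signal of at least 50 over the arrays, out of 12426 such genes in all. Grin1 and Shank2 were not analysed here. Grin2a was measured but dim, with signals of 39.0 in 2afl/fl, 36.7 in 2aECKO, 17.8 in 2afl/fl 4-OHT and 15.8 in 2aiECKO, and it enters no count. Nearest to the limit on the other side was Grin2c, with a mean signal of 50.7. It read 81.4 in 2afl/fl, without which it would not have passed, and below 50 in both pools of the 2aiECKO pair.

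Each of 4 groups was 1 pool of RNA from 5 to 6 cerebral hemispheres on 1 Affymetrix Mouse 430 2.0 array. The 2aECKO mice carried the floxed Mfsd2a alleles with Tie2-cre and were compared at postnatal day 9 with 2afl/fl mice. The 2aiECKO mice carried the same alleles with Cdh5ERT2-cre, which is active only after 4-OHT (4-hydroxytamoxifen, injected in the first days of life), and were compared at postnatal day 8 with 2afl/fl mice given 4-OHT. All groups thus shared the floxed alleles, and no control pool carried a cre. Tie2-cre is known to act in blood cells as well as endothelium. The sample of the 2aiECKO genotype and title is given 2aECKO as source name, and the title was followed. With 1 pool per group there is no replicate, no test and no p-value, and precision is limited by how few arrays there are. Folds are given as log2 of knockout over the control of the same age and treatment. A gene is called higher when its log2 fold is at least 0.32, the threshold of the study, and the knockout signal reaches 50, and lower when it is at most -0.32 and the control signal reaches 50.

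An excitatory synapse receives glutamate on a dendritic spine. AMPA receptors carry the fast current, NMDA receptors let calcium in when the membrane is also depolarized, kainate receptors tune transmission on both sides of the cleft, and metabotropic receptors act through G proteins. Below the membrane, Dlg proteins such as PSD-95 hold the receptors, Shank and Homer link this layer to metabotropic receptors and actin, and calcium/calmodulin kinase II reads the calcium. In rodent forebrain most of these synapses form in the weeks after birth, when Grin2a, Dlg4 and Camk2a are known to increase and Grin2d, Grin3a and Dlg3 are prominent.

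The deposited signals are on a linear scale. Sorted log2 signals differed by at most 0.07 within the 2aECKO pair and 0.05 within the 2aiECKO pair, whereas the controls differed by up to 0.79, and signals as deposited were compared only within a pair. Values set across pairs are named as such and follow quantile normalization over all arrays. Mfsd2a itself stood at -0.05 (2aECKO) and -0.30 (2aiECKO) at its single probe set, whose place relative to the deleted part was not found in the sources, so it checks no label. For the labelled tissue, all 8 matched markers of forebrain excitatory neurons had a mean signal of at least 50, while of 6 markers of cerebellum and hindbrain En1, En2, Gabra6 and Pcp2 were below it. The other two were not: Cbln1 read from 659 to 730.5 on the arrays, and Hoxb3 from 55.9 to 65.0.

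Most of the 35 genes had slightly lower signals in both knockouts than in their controls, and few were called. In 2aECKO 3 genes were called lower, namely Itpka, Grin2c and Camk2a, and 0 were called higher. The call of Grin2c carries no weight of its own, since the 2afl/fl signal behind it also let the gene pass the limit. Over all genes tested, 1.44 percent were called lower and 2.04 percent higher. In 2aiECKO 0 of the 35 were called lower and 0 higher, against 0.523 percent and 1.77 percent of all genes. Grin2c and Shank1, with a control signal below 50 in that pair, could not be called lower there. For the 35 genes the median log2 fold came to -0.08 (2aECKO) and -0.07 (2aiECKO), where that of all genes was -0.0066 and -0.0042. With the controls of the models exchanged after quantile normalization over all arrays, the 2aECKO median turned to 0.07 and that of 2aiECKO was -0.12. Of the 35 genes, 25 lay below 0 in 2aECKO and 29 in 2aiECKO, beside 51.5 and 50.9 percent of all genes. Single genes of the whole set had a robust SD of 0.118 (2aECKO) and 0.101 (2aiECKO). Since cerebrum is a mixture, fewer neurons and less of these RNAs per neuron cannot be told apart.

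**Figure D1:**
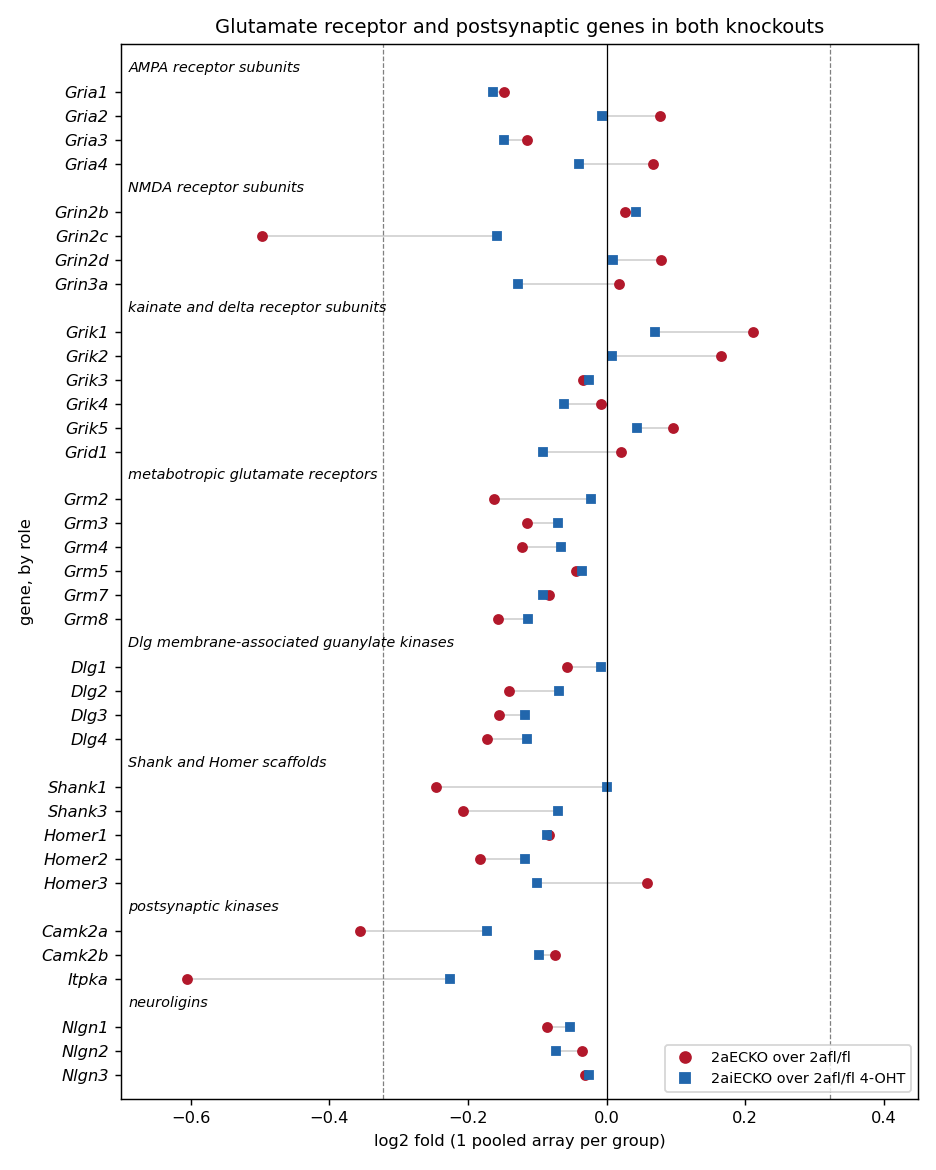
Log2 fold of each of the 35 genes (horizontal axis, no unit) by role (vertical axis), as red circles for 2aECKO over 2afl/fl and blue squares for 2aiECKO over 2afl/fl 4-OHT, from 1 pooled array per group; dashed lines mark the threshold of 0.32. Only Itpka, Grin2c and Camk2a in 2aECKO lie beyond a dashed line, and at these probe sets all metabotropic receptor, Dlg and neuroligin genes lie left of 0 in both models, which turns in 1 model for most of them with exchanged controls.

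The upstream sequences of Itpka and Grin2c, the genes with the lowest folds in 2aECKO, are shown beside that of Grik2, which had the second highest, because these are the ends of the list, at the brightest probe sets, for which a promoter sequence was at hand. Each line gives the 250 bases before the RefSeq start on build GRCm38.p6, with every GC box (GGGCGG on either strand, overlaps counted) in capitals. Itpka lies at chr2:119742087-119742336 on the plus strand, Grin2c at chr11:115267244-115267493 on the minus strand and Grik2 at chr10:49788755-49789004 on the minus strand.
Itpka: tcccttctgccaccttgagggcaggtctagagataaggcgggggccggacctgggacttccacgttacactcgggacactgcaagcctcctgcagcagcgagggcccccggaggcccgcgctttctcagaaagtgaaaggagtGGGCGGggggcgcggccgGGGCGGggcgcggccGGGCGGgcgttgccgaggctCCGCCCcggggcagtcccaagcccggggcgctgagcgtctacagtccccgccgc
Grin2c: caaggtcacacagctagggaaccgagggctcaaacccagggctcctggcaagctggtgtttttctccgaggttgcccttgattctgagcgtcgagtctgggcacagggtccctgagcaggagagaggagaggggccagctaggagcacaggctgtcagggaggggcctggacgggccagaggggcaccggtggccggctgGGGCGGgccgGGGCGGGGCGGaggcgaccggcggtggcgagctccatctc
Grik2: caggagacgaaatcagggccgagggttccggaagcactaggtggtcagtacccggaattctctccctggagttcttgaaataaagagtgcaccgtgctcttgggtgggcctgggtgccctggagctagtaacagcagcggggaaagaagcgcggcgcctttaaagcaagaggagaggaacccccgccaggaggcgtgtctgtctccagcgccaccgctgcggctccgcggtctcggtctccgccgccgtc
Itpka had 4 GC boxes, Grin2c had 3 and Grik2 had 0. A sequence was matched for 24 of the 35 genes, taking the first listed start of each. Of these, 15 held a GC box, or 62.5 percent, beside 32.9 percent of all 27025 genes with a sequence. The 24 windows were also richer in G and C, with a median of 67.8 percent beside 52.0 percent over all genes. The 27025 were not filtered by signal, unlike the 24. The motif shares and the G and C content thus compare unlike sets, and they are not traits shown to belong to the list. The median log2 fold in 2aECKO was -0.08 for the 15 genes with a box and -0.08 for the 9 without, and in 2aiECKO it was -0.07 and -0.05. Of other motifs searched on both strands, the cAMP response element TGACGTCA was found in 0 of the 24 windows and in 1.62 percent of all, the E-box CACGTG in 1 (Dlg1) and in 6.05 percent, the Egr site GCGTGGGCG in 1 (Shank3) and in 0.540 percent, and TATAAA in 0 and in 13.0 percent. The Egr site can share its last letters with a GC box. A match is a string of letters and not a measured site.

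The postsynaptic kinases had the lowest median fold of the roles. Itpka phosphorylates inositol trisphosphate and bundles actin in spines. At its single probe set the signal was 494 in 2afl/fl against 325 in 2aECKO, and 399 in 2afl/fl 4-OHT against 341 in 2aiECKO. Each knockout pool lay below its own control. The log2 folds, -0.61 for 2aECKO and -0.23 for 2aiECKO, were the lowest of the 35 genes in each model. Camk2a, the alpha subunit of calcium/calmodulin kinase II, had signals of 3617, 2827, 2274 and 2018 in 2afl/fl, 2aECKO, 2afl/fl 4-OHT and 2aiECKO, with log2 folds of -0.36 and -0.17. Each knockout again lay below its own control. Over the mean of its 6 probe sets Camk2a had -0.28 in 2aECKO and was no longer called, and with exchanged controls it had 0.04. Camk2b, the beta subunit, read 2133 in 2afl/fl against 2026 in 2aECKO, and 1826 in 2afl/fl 4-OHT against 1707 in 2aiECKO, with log2 folds of -0.07 and -0.10. So the kinases shared a sign, and the size of the 2aECKO fold ran from -0.61 to -0.07 among them.

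**Figure D2:**
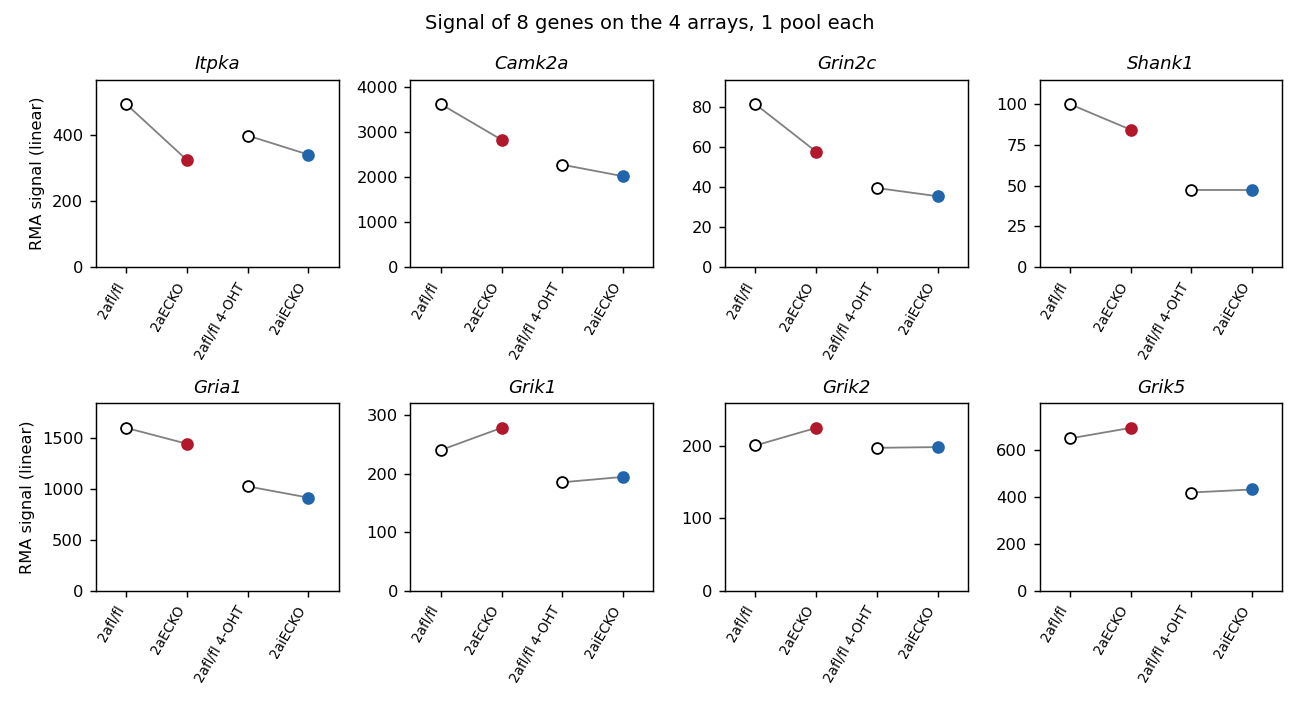
RMA signal on a linear axis from 0 (vertical) of 8 genes on the 4 arrays (horizontal); open circles are control pools, filled circles knockout pools, and lines join a knockout to its own control. Itpka, Camk2a, Grin2c and Gria1 slope down in both pairs, Shank1 in the 2aECKO pair, and Grik1 and Grik5 slope up in both.

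NMDA receptor subunits had folds of both signs. Grin2c, a subunit best known from cerebellar granule cells and glia, read 81.4 in 2afl/fl against 57.7 in 2aECKO, and 39.6 in 2afl/fl 4-OHT against 35.5 in 2aiECKO. Its log2 folds were -0.50 and -0.16, both knockouts being below their controls at dim signals. Grin2b, the main partner subunit of young forebrain, had signals of 945, 962, 745 and 768 in the same order of groups, with log2 folds of 0.03 and 0.04. Grin2d, an early subunit of interneurons and brainstem, had signals of 287 and 303 and then 165 and 166, with log2 folds of 0.08 and 0.01. Grin3a, an early subunit that lowers calcium entry, had 0.02 and -0.13. The median of the 4 measured subunits was 0.02 in 2aECKO and -0.06 in 2aiECKO, with Grin2c alone called.

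Genes known to increase after birth and genes prominent early are given side by side. Among 3 measured genes of the first kind, Grin2c, Camk2a and Dlg4, the log2 folds were -0.50, -0.36 and -0.17 in 2aECKO and -0.16, -0.17 and -0.11 in 2aiECKO. Among 4 of the second kind, Grin2b, Grin2d, Grin3a and Dlg3, they were 0.03, 0.08, 0.02 and -0.16 in 2aECKO, against 0.04, 0.01, -0.13 and -0.12 for 2aiECKO. The values of the kinds do not overlap in 2aECKO, though Dlg4 and Dlg3 lie next to each other, and overlap in 2aiECKO, where Grin3a and Dlg3 lie below Dlg4. With all probe sets averaged they overlap in 2aECKO as well, with Dlg4 at -0.14 and Dlg3 at -0.16. With exchanged controls they overlap there too, with Camk2a at 0.04 and Dlg4 at -0.16 on either side of Grin3a at -0.15. The difference rests on few genes and was not tested. Of these, Grin2c is dim and would not have passed the minimum signal without the 2afl/fl pool.

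At their brightest probe sets and against their own controls, AMPA receptor genes split into 2 pairs. Gria1, a subunit inserted during potentiation, read 1602 in 2afl/fl against 1445 in 2aECKO, and 1027 in 2afl/fl 4-OHT against 916 in 2aiECKO, with log2 folds of -0.15 and -0.16. Gria3, which pairs with the Gria2 subunit, read 1229.95 and 1136 and then 694 and 626, with log2 folds of -0.11 and -0.15. Both genes were below their controls in both models. Gria2, whose edited subunit blocks calcium entry, read 3355 in 2afl/fl against 3538 in 2aECKO, and 2597 in 2afl/fl 4-OHT against 2586 in 2aiECKO, with log2 folds of 0.08 and -0.01. Gria4, a subunit of early synapses and interneurons, read 805 and 843 and then 636 and 619, with log2 folds of 0.07 and -0.04. At these probe sets both were above the control in 2aECKO and below it in 2aiECKO, and 0 of the 4 AMPA receptor genes were called. With exchanged controls Gria1, Gria2, Gria3 and Gria4 were all above 0 in 2aECKO, at 0.21, 0.18, 0.43 and 0.11. Gria3 was then called higher, as were 8.03 percent of all genes. With averaged controls Gria1 had 0.03 and Gria3 0.16 in 2aECKO.

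At the brightest probe sets and against their own controls, kainate receptor genes held the highest folds of the list. Over the mean of all probe sets Gria2 had 0.22 in 2aECKO, between Grik1 at 0.31 and Grik2 at 0.10. With exchanged controls Grin2d and Shank3 stood highest in 2aECKO, both at 0.49, and Grik5 had 0.42. Grik1 and Grik2 encode subunits that can form channels on their own. Grik1 read 240.5 in 2afl/fl against 278 in 2aECKO, and 185 in 2afl/fl 4-OHT against 195 in 2aiECKO, with log2 folds of 0.21 and 0.07. Grik2 read 200.1 and 224 and then 197 and 198, with log2 folds of 0.16 and 0.01. Grik5, a high-affinity subunit that needs a partner, had 649 and 694 and then 419 and 432, with log2 folds of 0.10 and 0.04. All these knockout signals were above their controls, that of Grik2 in 2aiECKO by the least. Grik3 had -0.03 and -0.03, Grik4, the other high-affinity subunit, had -0.01 and -0.06, and Grid1, a delta receptor gene, had 0.02 and -0.09. The median of these 6 genes was 0.06 in 2aECKO and -0.01 in 2aiECKO, and 0 were called at the brightest probe set. At its other, dimmer probe set, which is of more specific design, Grik1 had 0.41 in 2aECKO, past the threshold, and -0.02 in 2aiECKO. Grik2 likewise has another probe set of more specific design, where it had 0.03 in 2aECKO and 0.10 in 2aiECKO, and with exchanged controls its brightest probe set had -0.20 and 0.38.

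All 6 metabotropic receptor genes lay below 0 in both models at their brightest probe sets, and 0 were called. Averaged over all its probe sets, Grm7 had 0.04 in 2aECKO, and with exchanged controls Grm2, Grm3 and Grm7 turned in 2aECKO and Grm4, Grm5 and Grm8 in 2aiECKO. For Grm2 and Grm3, receptors that lower cyclic AMP, 2aECKO gave -0.16 and -0.12 and 2aiECKO gave -0.02 and -0.07. Grm4, Grm7 and Grm8, presynaptic receptors of the same coupling, had -0.12, -0.08 and -0.16 in 2aECKO and -0.07, -0.09 and -0.11 in 2aiECKO. Grm5, which couples to phospholipase C and binds Homer, had -0.04 in both. The medians were -0.12 and -0.07. In signal, Grm3 read 2203 in 2afl/fl against 2033 in 2aECKO, and 1361 in 2afl/fl 4-OHT against 1297 in 2aiECKO. Grm8, the lowest of the 6 in 2aiECKO, read 149 and 134 and then 135 and 125. Grm2 read 447 and 399.8 and then 270.3 and 266, so that its knockout and control were closer in the 2aiECKO pair.

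Scaffold, kinase and neuroligin genes together had a lower median fold than receptor genes in both models, a difference that was not tested. Over 15 measured genes of scaffold, kinases and neuroligins the median log2 fold was -0.14 (2aECKO) and -0.09 (2aiECKO), with 14 of 15 below 0 in each. Over 20 measured receptor genes it was -0.02 and -0.05, with 11 and 15 below 0. Among these the 14 ionotropic subunits had medians of 0.02 and -0.03, and the 6 metabotropic receptors -0.12 and -0.07. The neuroligins, counted with the scaffold, had -0.04 and -0.05. Dlg4, which encodes PSD-95, read 1619.6 in 2afl/fl against 1438 in 2aECKO, and 1309.9 in 2afl/fl 4-OHT against 1209.7 in 2aiECKO, with log2 folds of -0.17 and -0.11. Dlg3, which encodes SAP102, read 1178 and 1058 and then 807 and 744, with log2 folds of -0.16 and -0.12. Dlg2, which encodes PSD-93, had -0.14 and -0.07. Dlg1, which encodes SAP97, had -0.06 and -0.01 and was closest to 0 of the 4 in both models. Over the mean of all probe sets Dlg1 had 0.01 in 2aECKO and Dlg4 had 0.03 in 2aiECKO, and with exchanged controls Dlg2 and Dlg3 turned in 2aECKO.

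Shank1 and Shank3 join the Dlg layer to Homer. Shank1 read 99.9 in 2afl/fl against 84.2 in 2aECKO, and 47.0 in both 2afl/fl 4-OHT and 2aiECKO. Its log2 folds were -0.25 and 0.00. Shank3 read 622 and 539 and then 308 and 293, with log2 folds of -0.21 and -0.07. Both Shank genes had the lower fold in 2aECKO when each model was set against its own control. With exchanged controls Shank1 had 0.22 and Shank3 0.49 in 2aECKO. Both were then called lower in 2aiECKO, as were 9.17 percent of all genes. Homer1 read 1533 in 2afl/fl against 1448 in 2aECKO, and 1267 in 2afl/fl 4-OHT against 1194 in 2aiECKO, with log2 folds of -0.08 and -0.09. Homer2 read 898 and 791 and then 764 and 704, with log2 folds of -0.18 and -0.12. Homer3, at dim signals of 72.4 and 75.4 and then 53.6 and 50.02, had 0.06 and -0.10 and was the only one of the 5 above its control in 2aECKO. The median of these 5 genes was -0.18 in 2aECKO and -0.09 in 2aiECKO. The neuroligins, adhesion proteins that face presynaptic neurexins, were nearer to 0: Nlgn1, of excitatory synapses, had -0.09 and -0.05, Nlgn2, of inhibitory synapses, -0.04 and -0.07, and Nlgn3, of both, -0.03 in both. With all probe sets averaged Nlgn1 had 0.03 in 2aECKO, and with exchanged controls Nlgn1 and Nlgn2 turned in 2aECKO and Nlgn3 in 2aiECKO.

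The folds of the models went together across the 35 genes, which share no array between comparisons. Pearson's r was 0.72 and Spearman's rho 0.62 across genes, beside 0.43 and 0.40 over all 12426 genes. Without Itpka r was 0.65. Grin2c, which passed the minimum signal only through the 2afl/fl pool, stayed in all of these values. Genes are not independent replicates, and the list was chosen with earlier results of these data known. The values of all genes beside it are therefore a description and no test. Of the 35 genes, 24 lay below 0 in both models, or 68.6 percent, beside 32.7 percent of all genes, 5 lay above 0 in both, 5 lay above 0 in 2aECKO and below 0 in 2aiECKO, 0 went the opposite way, and Shank1 had exactly 0 in 2aiECKO. The 24 became 22 over the mean of all probe sets, 13 with averaged and 7 with exchanged controls. The genes above 0 in both were Grin2b, Grin2d, Grik1, Grik2 and Grik5. Per gene, the log2 fold in 2aECKO minus that in 2aiECKO had a median of -0.01, being below 0 for 19 genes and above 0 for 16. The models differ in age, cre driver and 4-OHT, which cannot be told apart here.

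**Figure D3:**
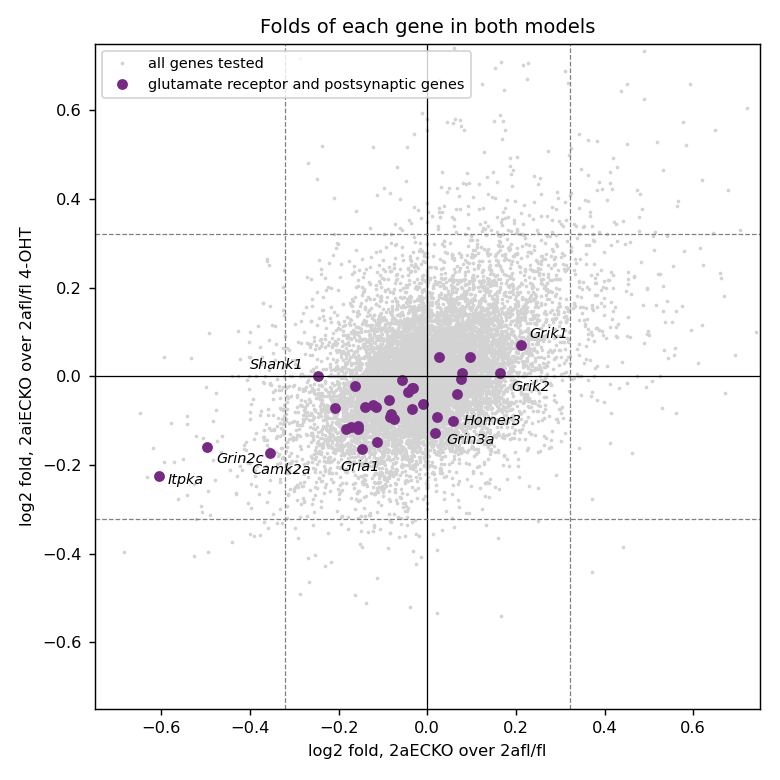
Log2 fold in 2aECKO over 2afl/fl (horizontal) against 2aiECKO over 2afl/fl 4-OHT (vertical) for all genes tested (grey points) and the 35 glutamate receptor and postsynaptic genes (purple circles); dashed lines mark the threshold of 0.32, and 22 grey genes beyond 0.75 on either axis are not drawn. The lower left quadrant holds 24 of the 35 genes, with Itpka farthest out.

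The fold depended on the probe set for some genes. Among the 35 genes, 19 had several probe sets with a mean signal of at least 50. For Camk2a 4 of 6 probe sets passed the threshold downward in 2aECKO, from -0.52 to -0.36, another had -0.06, and the last had 0.20. In 2aiECKO these probe sets ran from -0.28 to 0.01. For Homer1 all 5 lay below 0 in 2aECKO, from -0.35 to -0.08, the brightest being nearest to 0, and in 2aiECKO they ran from -0.19 to 0.10. For Dlg2 the dimmer probe sets had -0.40 and -0.36 in 2aECKO, both past the threshold, against -0.14 at the brightest. In 2aiECKO the Dlg2 probe sets ran from -0.11 to 0.02. For Gria2 all 3 lay above 0 in 2aECKO, from 0.08 to 0.45, and in 2aiECKO they ran from -0.01 to 0.23. For Dlg4 they ran from -0.17 to -0.09 in 2aECKO and from -0.11 to 0.30 in 2aiECKO. Probe sets whose folds crossed 0 in at least 1 model were also found for Dlg1, Gria4, Grid1, Grik1, Grin2b, Grin2d, Grin3a and Nlgn3. The probe sets of Gria1, Gria3, Grik2, Grm5, Homer2 and Nlgn2 shared a sign in each model or lay at 0.

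**Figure D4:**
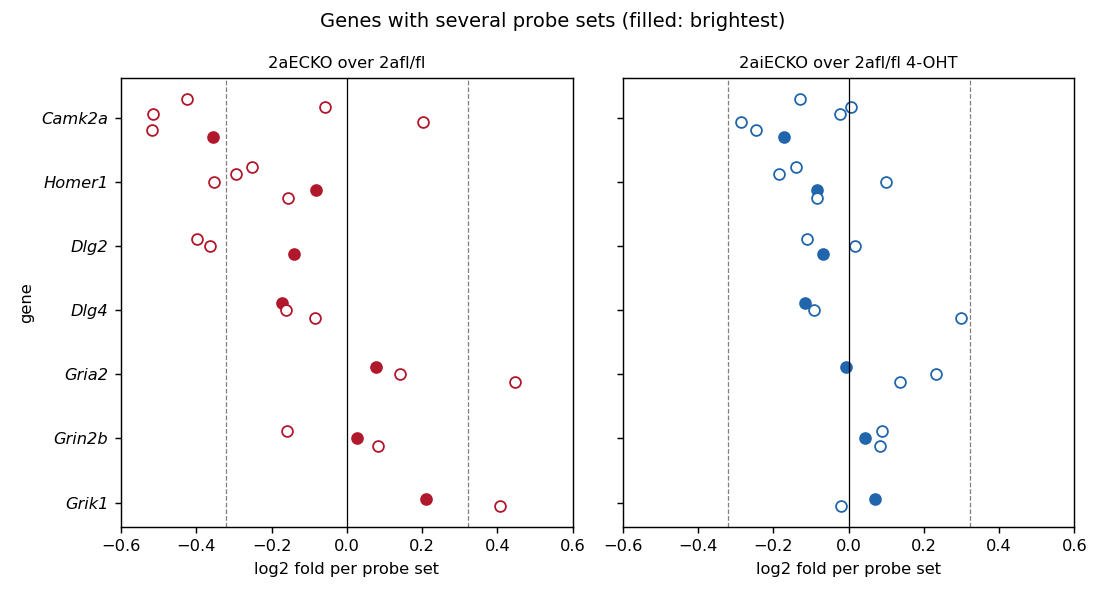
Log2 fold of each probe set with a mean signal of at least 50 (horizontal) for 7 genes (vertical), in 2aECKO (left) and 2aiECKO (right); filled circles are the brightest probe set of a gene and dashed lines mark the threshold of 0.32. In 2aECKO 4 of 6 Camk2a probe sets and 2 of 3 Dlg2 probe sets lie left of the dashed line.

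Of 82 further genes of the excitatory synapse, 66 were measured: 6 were called lower in 2aECKO and 0 higher, and 0 were called in 2aiECKO. Over all genes, 1.44 percent were called lower and 2.04 percent higher in 2aECKO, and 0.523 and 1.77 percent in 2aiECKO. Their medians were -0.05 and -0.04. Receptor partners and trafficking genes had the lowest median in 2aECKO, -0.14, with 16 of 18 below 0, and -0.05 in 2aiECKO. Cacng3, an AMPA receptor partner of the TARP family, stood at -0.36 (2aECKO) and -0.07 (2aiECKO), and Neto1, a partner of kainate receptors, had -0.36 and -0.16. Cacng4, another TARP, had -0.06 and -0.27. Of 23 other postsynaptic density genes 19 were below 0 in 2aECKO and 17 in 2aiECKO, with medians of -0.10 and -0.05. Among them Synpo, of the spine apparatus, had -0.40 and -0.08, Kalrn, a spine exchange factor, -0.35 and -0.02, Actn2, an actin cross-linker, -0.35 and -0.09, and Nrgn, which binds calmodulin in spines, -0.29 and -0.24. Synaptic adhesion genes lay near 0, with medians of 0.01 and -0.01 over 17 genes and 0 called. Slc17a7, the vesicular glutamate transporter of cortical neurons, had -0.39 and -0.21, while the 8 genes of glutamate transport and metabolism that include it had medians of 0.03 and 0.07.

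Inhibitory postsynapse genes and neuron markers also had medians below 0. The calls given below stand beside 1.44 percent of all genes lower and 2.04 percent higher in 2aECKO. In 2aiECKO these shares were 0.523 and 1.77 percent. Of 10 inhibitory postsynapse genes, 9 lay below 0 in 2aECKO and 3 were called lower: the GABA-A receptor genes Gabra2, Gabrd and Gabra4, at -0.59, -0.49 and -0.36. In 2aiECKO these had -0.19, -0.26 and -0.09, and the list medians were -0.12 and -0.03. The 10 neuron markers had medians of -0.11 in 2aECKO, with 9 of 10 below 0, and -0.06 in 2aiECKO, with 10 of 10 below 0, and 0 were called. Their summed signal was 55792 in 2afl/fl against 52659 in 2aECKO, and 44389 in 2afl/fl 4-OHT against 42541 in 2aiECKO. Markers of forebrain excitatory neurons had medians of 0.00 and -0.07, with Slc17a7 called lower in 2aECKO at -0.39 and Cux2 in 2aiECKO at -0.35. Those of inhibitory neurons had medians of 0.00 and -0.04, with Lhx6 called lower in both models at -0.38 and -0.36. The 8 astrocyte markers had medians of 0.23 and 0.30, with 7 and 8 above 0, of which 1 (Gfap) was called higher in 2aECKO and 3 in 2aiECKO, and summed signals of 21237 and 24243 in the 2aECKO pair and 14922 and 18025 in the 2aiECKO pair. The 10 microglia markers had medians of 0.10 and 0.50, with 0 of 10 and 8 of 10 called higher, Tmem119 and P2ry12 called lower in 2aECKO, and summed signals of 4581 and 4848 in the 2aECKO pair and 4137 and 5991 in the 2aiECKO pair. No marker signal was 0 on any array. Hypothalamic markers had medians of 0.25 and 0.02, with Avp called higher in both models at 0.58 and 0.58, and thalamic markers had 0.24 and -0.01, with Lhx9 called higher in 2aECKO at 0.42. Oligodendrocyte markers had medians of 0.02 and 0.26, the latter with 4 of 4 above 0. Mobp was called lower in 2aECKO at -0.34, and Mbp was called higher in 2aiECKO at 0.42. Alas2, of red blood cells, read 57.9 in 2afl/fl against 119.6 in 2aECKO, and 36.8 in 2afl/fl 4-OHT against 25.8 in 2aiECKO. Its log2 folds were 1.05, called higher, and -0.51, which could not be called lower with a control signal below 50. Nuclear-retained RNAs had medians of 0.51 and 0.21, with Malat1 at 0.55 and 0.25. In 2aECKO 4 of 6 were called higher, namely Rmst (1.03), Miat (0.57), Malat1 and Meg3 (0.46), and in 2aiECKO 0 were called. The activity-regulated genes had a median of -0.19 in 2aECKO, where Arc was called lower at -0.59. In 2aiECKO their median was 0.13, and Fos was called higher at 0.46. The part of these markers in the folds of the receptor and scaffold genes was not tested.

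**Figure D5:**
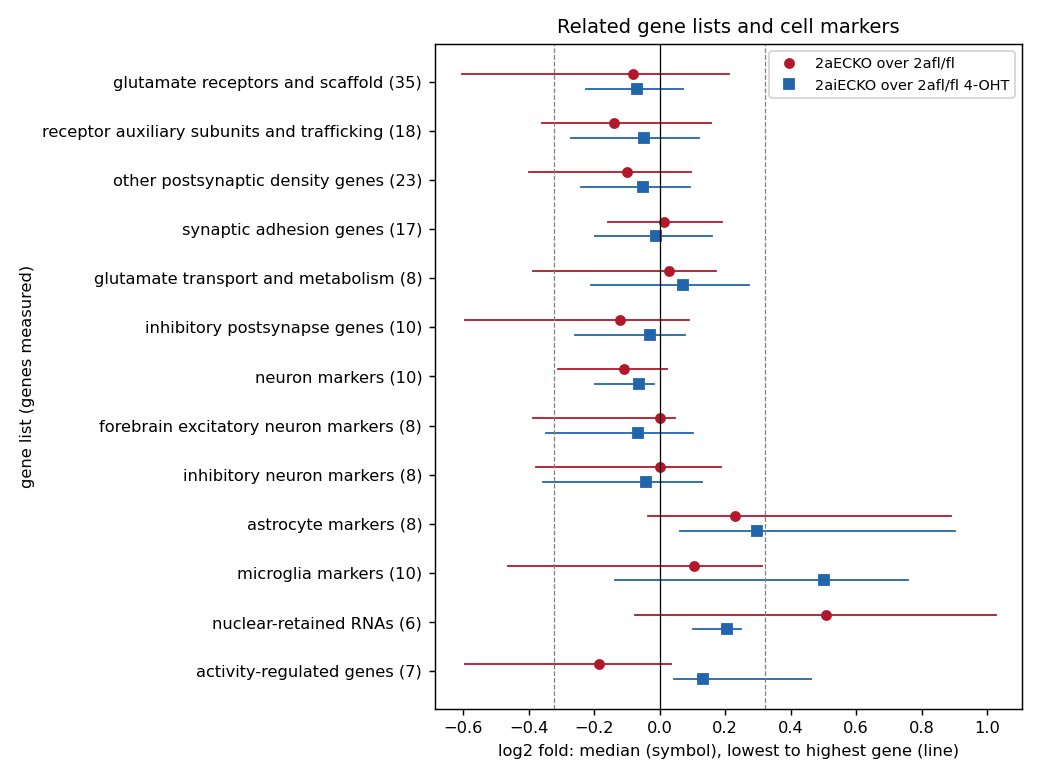
Median (symbol) and lowest to highest log2 fold (line, horizontal axis) of gene lists (vertical axis, number of genes measured in brackets). Red is 2aECKO over 2afl/fl and blue is 2aiECKO over 2afl/fl 4-OHT. Nlgn2 is in both the list of glutamate receptors and scaffold and the inhibitory postsynapse list. The lists of glutamate receptors and scaffold, receptor auxiliary subunits and trafficking, other postsynaptic density genes, inhibitory postsynapse genes and neuron markers have medians left of 0 in both models, while the astrocyte, microglia and nuclear-retained lists have medians right of 0 in both.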

How the data were processed

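RNA of 4 pooled samples was profiled on Affymetrix Mouse 430 2.0 arrays. What the authors deposited is a linear intensity per probe set after RMA, with background adjusted and quantiles normalized. The methods give the affy package in R as the tool, and the submitters' processing notes give Partek 6.6. No source states whether all arrays were normalized together. Each group was 1 array, so no test across samples was possible.

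Signals were put on the log2 scale. The arrays hold 45101 probe sets, of which 34958 have 1 gene symbol, 932 several and 9211 none here. Each of 18194 genes was represented by its probe set of highest mean log2 signal. Genes with a mean signal (from the mean log2) of at least 50 were kept. A gene was called higher with a knockout signal of at least 50 and a fold of at least 1.25, the study's rule, and lower with a control signal of at least 50 and a fold of at most 0.8. The genes and lists were chosen with earlier results of these data known. Named genes are those past 1.25-fold, the 4 highest and 4 lowest of each comparison, and those whose probe sets disagreed in sign or by over 0.3; other listed genes are given by value within their role. Names were checked against RefSeq (GRCm38.p6), which also gave the upstream sequences. The fold and call steps were tested on simulated data.

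Alternatives averaged all probe sets of a gene, dropped the less specific ones, removed a loess trend (fraction 0.3), centred the folds, set the minimum signal to 100 or to none or the fold to 1.5, or applied quantile normalization over all 4 arrays, alone or with the other control or both controls. Python 3.11.15, numpy 2.4.6, pandas 2.3.3, scipy 1.17.1, statsmodels 0.14.6 and matplotlib 3.10.9 were used.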

Additional observations from a re-analysis of the deposited data

Results flagged for a closer look

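Opposite signs in the models were found for 5 of the 35 genes, from 1 array per group, and the difference between the models was not tested. The log2 fold was above 0 in 2aECKO and below 0 in 2aiECKO for Gria2, Gria4, Grin3a, Grid1 and Homer3, with differences (2aECKO minus 2aiECKO) of 0.0830, 0.107, 0.146, 0.113 and 0.159, and 0 of these genes were called in either model. With all probe sets averaged, the signs were no longer opposite for Grin3a (-0.04 in 2aECKO), Grid1 (-0.09 in 2aECKO) and Gria2 (0.12 in 2aiECKO), nor for the NMDA median below (-0.05 in 2aECKO). At a minimum signal of 100 the NMDA and the kainate and delta medians were above 0 in both models. Medians also differed in sign for some lists. The difference was 0.0817 for NMDA receptor subunits, 0.0681 for kainate and delta receptor subunits, 0.0765 for genes prominent early, 0.0242 for synaptic adhesion genes and 0.0674 for forebrain excitatory neuron markers. It was 0.247 for thalamic markers, 0.160 for endothelial markers, -0.165 for striatal markers, -0.193 for the 2 measured cerebellar and hindbrain markers, -0.0285 for oligodendrocyte precursor markers and -0.319 for activity-regulated genes.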

How the results depend on the processing

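The median log2 fold of the list stayed below 0 in 2aECKO under 8 of 9 alternatives, from -0.09 to -0.02, and in 2aiECKO under 9 of 9, from -0.12 to -0.06. The exception was the exchange of controls after quantile normalization over all arrays, which gave 0.0676 in 2aECKO and reversed Camk2a to 0.0448. It also moved the median difference between the models to 0.179, the genes called higher to 4 in 2aECKO and 1 in 2aiECKO (8.03 and 15.2 percent of all genes), and those called lower in 2aiECKO to 11 (9.17 percent). The mean of both controls moved the latter to 5 (2.83 percent). Exchanged or averaged controls bring the difference between the control pools into the fold by construction. A fold of 1.5 left 1 gene lower in 2aECKO, Itpka. Without the less specific probe sets there was 1 gene higher in 2aECKO, Grik1. Over the mean of all probe sets 2 genes were lower in 2aECKO, Grin2c and Itpka, and at a minimum signal of 100 these were Camk2a and Itpka. Against the exchanged control Itpka had -0.64 (2aECKO) and -0.21 (2aiECKO). With exchanged or averaged controls 8 of 32 medians of role groups and 45 of 140 single-gene folds turned sign, and under the other alternatives 3 of 112 and 14 of 480. The 3 were NMDA receptor subunits in 2aECKO (-0.05, mean of all probe sets) and, at a minimum signal of 100, NMDA and kainate and delta subunits in 2aiECKO. No paired analysis was possible because each group has 1 array. Single pools and, for Grin2c, Shank1 and Homer3, low signals limit these values.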

Other observations

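The control pools differed from each other by more than either knockout differed from its control. The log2 difference of 2afl/fl 4-OHT (postnatal day 8) from 2afl/fl (postnatal day 9) was taken after quantile normalization over all arrays. It had a robust SD of 0.244 over 12415 genes. After the same normalization the knockout folds had 0.123 (2aECKO) and 0.097 (2aiECKO). Between the controls the 35 genes ran from -0.69 for Shank3 to 0.38 for Grik2, with a median of -0.06 beside 0.06 over all genes. Among the genes with the lowest folds in 2aECKO, Camk2a had -0.40 and Grin2c -0.43 between the controls, while Itpka had 0.02. Age, 4-OHT and any separate processing of the pairs, which no source states, cannot be told apart in these values.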
